A study of Mus musculus with 8 samples.

Results

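The genes described here make up the insulin-like growth factor (IGF) axis of the liver. They are the ligand genes Igf1 and Igf2, the noncoding RNA gene H19, the receptor genes Igf1r and Igf2r, the binding protein genes Igfbp1, Igfbp2, Igfbp3 and Igfbp4, and Igfals, which encodes the acid-labile subunit. They were chosen by name: each probe whose current or older gene symbol was one of these 10 was taken, which gave 19 of 41174 probes and 10 of 18153 genes tested. These names, and the lists set beside them below, were chosen with earlier results of these data known. All 19 probes were well above background on both arrays of at least 1 group.

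The RNA was total liver RNA of C57BL/6 mice, 6 months old and labelled as female, hybridised to 8 one-colour Agilent mouse arrays. The 4 groups, with 2 arrays each (a and b), were KO mice given N-ethyl-N-nitrosourea (ENU, an alkylating mutagen), WT mice given ENU, KO mice given vehicle and WT mice given vehicle. KO mice were Albumin-Cre;Dicer1loxP/loxP and WT mice were their Dicer1loxP/loxP littermates, so the floxed Dicer1 alleles are common to all groups. The Alb promoter is used to direct Cre to hepatocytes, and which cells of the liver lost Dicer1 was not measured here. ENU was given once into the peritoneum at 120 mg/kg, the vehicle was dimethylsulfoxide, and the volume was 2 ml/kg. Livers of ENU mice date from 15 days after the dose, while for vehicle mice no day is stated. The number of mice behind an RNA sample is not given, so p-values rest on these RNA samples alone and do not measure the spread between mice.

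As background, IGF-I is the circulating growth factor that hepatocytes make in response to growth hormone, and IGF-II is its fetal counterpart, which is silenced in the mouse liver after weaning. Both act through the IGF-I receptor, while the IGF-II receptor, also known as the cation-independent mannose 6-phosphate receptor, takes IGF-II up for degradation. In blood most IGF is held in a ternary complex with IGFBP-3 and the acid-labile subunit, and the other binding proteins carry, retain or withhold the rest. Dicer1 encodes the ribonuclease that makes mature microRNAs, among them the let-7 family, which is known to restrain fetal transcripts in differentiated cells.

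All levels are log2 of the processed signal over the array's 75th percentile, so 0 is the brightness of a probe at that percentile and a difference of 1 is 2-fold. Arrays a and b of a group differed by a median of 0.661 to 0.877 standard errors over 152 probes spotted at least 5 times, against 12.4 to 28.6 between groups. This is about the size of spot noise, so the pair of a group was averaged and taken as a single sample, and 4 RNA samples remain. A KO minus WT difference within a treatment therefore sets 1 RNA sample against 1 and has no test. The KO effect was tested with limma over those samples in a model of genotype plus treatment, with Benjamini-Hochberg adjustment over all 18153 genes. Rose and fell are used for adjusted p under 0.05 in that fit. It has 1 residual degree of freedom, which is the difference between the ENU response in KO and that in WT. To this limma adds a prior variance estimated from all genes, worth 2.9 degrees of freedom. The SEs and p-values thus rest largely on that prior and not on replicate samples of a group. Every ENU array was on slide 1 and every vehicle array on slide 2, and on each slide KO took positions 1 and 2, with WT at 3 and 4. Neither the slide and ENU nor the position and genotype can be told apart.

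The targeted gene checked the labels. The Dicer1 probe A_51_P333060 read -4.02 in KO ENU against -2.51 in WT ENU, and -4.32 in KO vehicle against -1.86 in WT vehicle. A second Dicer1 probe, A_51_P483059, differed less, by -0.26 after ENU and -0.50 on vehicle, and whether either lies in the deleted part was not determined here. Of the Y-linked genes Ddx3y, Eif2s3y, Kdm5d and Uty, 4 were well above background on all 8 arrays, which goes against the label female. The marker counts that follow stand beside 16.9% of all genes that rose in KO and 15.3% that fell. Hepatocyte markers were abundant in every group (Alb at 9.22 to 9.81). Of 9 measured markers of that type 0 rose and 6 fell in KO (2 fell with quantile normalization and 9 with median centring). Their summed signal, in units of the 75th percentile, was 1159 in KO ENU against 2013 in WT ENU, and 1229 in KO vehicle against 2355 in WT vehicle. All 5 measured hepatoblast markers rose, with a summed signal of 610.7 in KO ENU against 11.03 in WT ENU, and 600.2 in KO vehicle against 14.14 in WT vehicle. Of the other marker lists, 8 of 9 cholangiocyte and progenitor, 4 of 10 stellate and fibroblast, 5 of 8 macrophage and 7 of 7 neutrophil markers rose, and none of these fell. Of the neutrophil markers, Elane was not well above background in WT and passed the filter through KO alone. Its KO level was at least 2.21-fold higher after ENU and at least 1.06-fold higher on vehicle. Ngp and Epcam were not well above background in WT vehicle, nor Camp in WT ENU. Fewer neutrophil markers rose over probes well above background on all 8 arrays, as given at the end. Of 8 T, NK and B cell markers 4 rose and 1 fell, and of 8 endothelial markers 0 rose and 1 fell. Each count of 1 that fell is close to the share of all genes. Cd8a, among those that rose, was not well above background in WT vehicle. The part these other cells have in the IGF results was not tested. In whole liver, fewer cells of a type and less RNA per cell cannot be told apart.

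In KO livers the fetal ligand gene Igf2, its neighbour H19 and both receptor genes were higher, and the adult ligand gene Igf1 and Igfals were lower. Igf2, H19, Igf1r, Igf2r and Igfbp1 rose (5 of 10, against 16.9% of all genes tested), and Igf1 and Igfals fell (2 of 10, against 15.3% of all genes). In either direction 32.2% of all genes passed. Igfbp2, Igfbp3 and Igfbp4 did not. The median KO effect over the 10 genes was 0.80, against -0.12 over all genes. For ENU, 0 of the 10 genes passed, as did 0 of all genes in either direction (0%), while limma gave an unadjusted p under 0.05 for 3986 genes (22%).

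**Figure D1:**
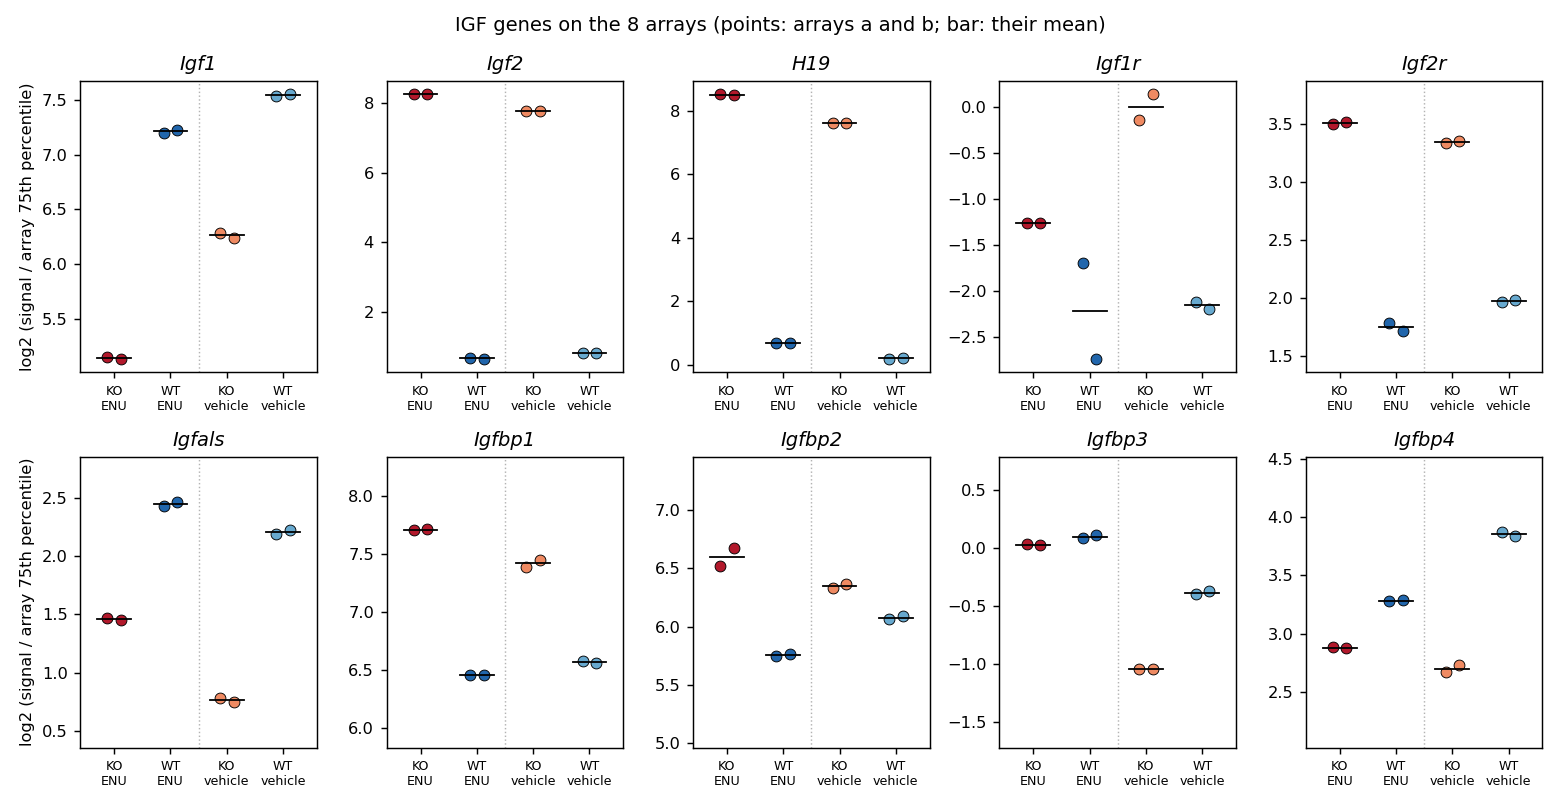
Level of each IGF gene on every array, as log2 of the processed signal over the array's 75th percentile (each panel has its own vertical axis, not starting at 0), in KO ENU, WT ENU, KO vehicle and WT vehicle. Points are arrays a and b, side by side, and bars are their means. Igf2 and H19 stand near 8 in both KO groups and under 1 in both WT groups, and only for Igf1r do the arrays of 2 groups (WT ENU and WT vehicle) overlap.

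The imprinted pair Igf2 and H19 differed most among the 10 genes. They are neighbours on chromosome 7, with H19 at chr7:142575530-142578146 and Igf2 at chr7:142650768-142666816 in RefSeq's GRCm38.p6, 72.6 kb apart. H19 is a long noncoding RNA expressed from the maternal chromosome and Igf2 is expressed from the paternal one in most fetal tissues. Each gene holds a microRNA, and since Dicer1 cuts such precursors, the mature forms are shown here with their seed, bases 2 to 8, in capitals. These arrays do not measure mature microRNAs, and the sequences are RefSeq's, on the minus strand of GRCm38.p6. The 4 seeds all differ.
miR-675-3p (in H19, chr7:142577078-142577099): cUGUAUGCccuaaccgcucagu
miR-675-5p (in H19, chr7:142577112-142577133): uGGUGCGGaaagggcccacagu
miR-483-3p (in Igf2, chr7:142654932-142654952): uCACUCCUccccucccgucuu
miR-483-5p (in Igf2, chr7:142654968-142654989): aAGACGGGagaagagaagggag

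Igf2 read 8.26 on both KO ENU arrays, against 0.66 and 0.64 on the WT ENU arrays. On vehicle it read 7.77 on both KO arrays, against 0.82 and 0.80 on the WT arrays. The KO and WT arrays lay far apart in both treatments, and the arrays within a group nearly coincided. The Igf2 signal of KO was 195 times that of WT after ENU and 125 times on vehicle, and Igf2 rose by 7.28 ± 0.24 in the limma fit (log2, SE, adjusted p = 0.00998). The values are those of probe A_51_P516826 (chr7:139078075-139078135 in mm7, the build of the array's annotation), which was printed 10 times per array. Its spots varied by an SD of 0.03 to 0.15, a small fraction of the difference. A second Igf2 probe, A_51_P516833 (chr7:139078490-139078549), gave a KO effect of 7.97 ± 0.30 (limma over 27231 probes, adjusted p = 0.00659).

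H19 was likewise high in KO and low in WT. It read 8.52 and 8.49 on the KO ENU arrays against 0.68 and 0.67 on the WT ENU arrays, and 7.62 on both KO vehicle arrays against 0.19 and 0.21 on the WT vehicle arrays. After ENU the KO level was 227-fold higher and on vehicle 171-fold higher. H19 rose by 7.62 ± 0.21 (limma, adjusted p = 0.00998), and the second H19 probe, A_52_P571350, gave 7.87 ± 0.27 (limma over probes, adjusted p = 0.00659). Both Igf2 and H19 probes were above background on all 8 arrays, so these folds are measured ratios and not bounds. Beside them, the hepatoblast markers Afp and Dlk1 rose by 5.56 and 8.37.

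RefSeq's table of promoters lists 4 start sites for Igf2, and H19 has no entry in it. GC boxes (GGGCGG, searched on both strands) are shown because they are the only searched letters found in an Igf2 window. The 250 bases in chr7:142657497-142657746, before 1 of the starts, held 2 of them, and the 250 bases before another start held 1, while 32.7% of 32851 windows of that length in the table held at least 1. The match is a description of letters and not of a bound factor. The 30 bases that hold both boxes, which are in capitals, read on the minus strand, 5′ to 3′, as follows.
Igf2 (chr7:142657572-142657601, GRCm38.p6): ggaggGGGCGGgtgcaaaggGGGCGGgggg

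The nearest profiles to Igf2 across the 4 RNA samples, by Euclidean distance of centred log2 values, were Mirg at 0.35, Rian at 0.43, Siglecf at 0.51, H19 at 0.63 and Bex1 at 0.73. Mirg and Rian are noncoding RNA genes of the imprinted Dlk1-Dio3 domain, Siglecf encodes a sialic acid-binding receptor of eosinophils, and Bex1 is a small brain-expressed X-linked gene. The likeness rests on 4 samples that share their arrays. Siglecf and Bex1 were well above background on 0 of the 4 WT arrays and Mirg and Rian on 1 each, so their distances rest partly on dim readings.

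Igf1, the ligand of the adult liver, went the other way. It read 5.15 and 5.14 on the KO ENU arrays against 7.20 and 7.22 on the WT ENU arrays. The vehicle arrays gave 6.28 and 6.24 on the KO arrays against 7.54 and 7.55 on the WT arrays. All KO arrays were below all WT arrays, and the lowest were those of KO ENU. Igf1 was 4.19-fold lower in KO after ENU and 2.43-fold lower on vehicle, and it fell by 1.67 ± 0.27 (limma, adjusted p = 0.0231). With quantile normalization the direction held but the call did not (-0.92, limma adjusted p = 0.0949).

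The probe behind these values, A_51_P147942, lies at chr10:87488982-87489041 of mm7 and was printed 10 times per array, with an SD between spots of 0.02 to 0.05. A second probe, A_52_P536434, differed by -1.95 after ENU and -1.31 on vehicle, and its KO effect was -1.63 ± 0.24 (limma over probes, adjusted p = 0.0181). The last Igf1 probe, A_52_P306327, matches the cDNA AK050118 and lies at chr10:87420848-87420907 of mm7, at lower coordinates than both others. It read -0.40 and -0.48 on the KO ENU arrays against 1.43 on both WT ENU arrays, but 1.03 and 1.04 on the KO vehicle arrays against 1.07 and 1.17 on the WT vehicle arrays. The KO and WT arrays of this probe were thus well apart after ENU and close together on vehicle. Its KO effect did not pass (-0.98 ± 0.47, limma over probes, adjusted p = 0.181), so the 3 Igf1 probes disagree on vehicle.

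Igfals, whose product keeps IGF and IGFBP-3 in the circulation, fell with Igf1. It read 1.47 and 1.45 on the KO ENU arrays against 2.44 and 2.46 on the WT ENU arrays. The values on vehicle were 0.79 and 0.74 on the KO arrays against 2.19 and 2.22 on the WT arrays. Both KO groups were below both WT groups, and the KO vehicle arrays were lowest. Igfals was 1.99-fold lower in KO after ENU and 2.72-fold lower on vehicle, and it fell by 1.22 ± 0.21 (limma, adjusted p = 0.0267). Its single probe lies at chr17:23064462-23064521 of mm7.

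Growth hormone is known to drive Igfals through STAT5, which binds palindromes of the form TTCNNNGAA, so the Igfals windows were searched for that pattern on both strands. RefSeq's table lists 3 start sites for Igfals, and the windows before 2 of them held 1 match each, against 7.02% of all 32851 windows. The matches are shown in capitals within 30 bases of the plus strand of GRCm38.p6, the second of them beginning at position -58 from its start site. No factor's binding was measured.
Igfals, first window (chr17:24877597-24877626): cgatctataatTTCTCAGAAaagaggctga
Igfals, second window (chr17:24878162-24878191): tctgccaggtgTTCCTAGAAgaggccctgg

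The genes through which growth hormone acts on Igf1 and Igfals were described beside them. Of 14 such genes measured, 1 rose and 3 fell, against 16.9% and 15.3% of all genes, and the median KO effect was -0.69 against -0.12 over all genes. The count that fell was 1 without a filter on dim probes and 7 with median centring. Ghr, the growth hormone receptor, fell by 2.70 ± 0.23 (limma, adjusted p = 0.0106), with differences of -2.98 after ENU and -2.42 on vehicle. Prlr, the prolactin receptor, fell by 0.91, Cebpa, a transcription factor of differentiated hepatocytes, fell by 0.90, and Socs1, an inhibitor of cytokine receptor signalling, rose by 1.15. The transducers did not pass: Stat5a differed by -0.88 (limma, adjusted p = 0.0539), Stat5b by -0.63 and Jak2 by 0.42. Hepatocyte markers moved the same way as Igf1 and Ghr (6 of 9 fell, 2 with quantile normalization and 9 with median centring), and their part in these values was not tested.

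The 5 genes nearest to Igf1 by the same distance were Cdo1 at 0.10, Slc2a5 at 0.10, TC1444249 at 0.12, 5330430P22Rik at 0.15 and ENSMUST00000056619 at 0.17. Cdo1 encodes cysteine dioxygenase and Slc2a5 a fructose transporter, and the remaining names are those of the files. The distances are over 4 samples that share arrays and describe likeness only.

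**Figure D2:**
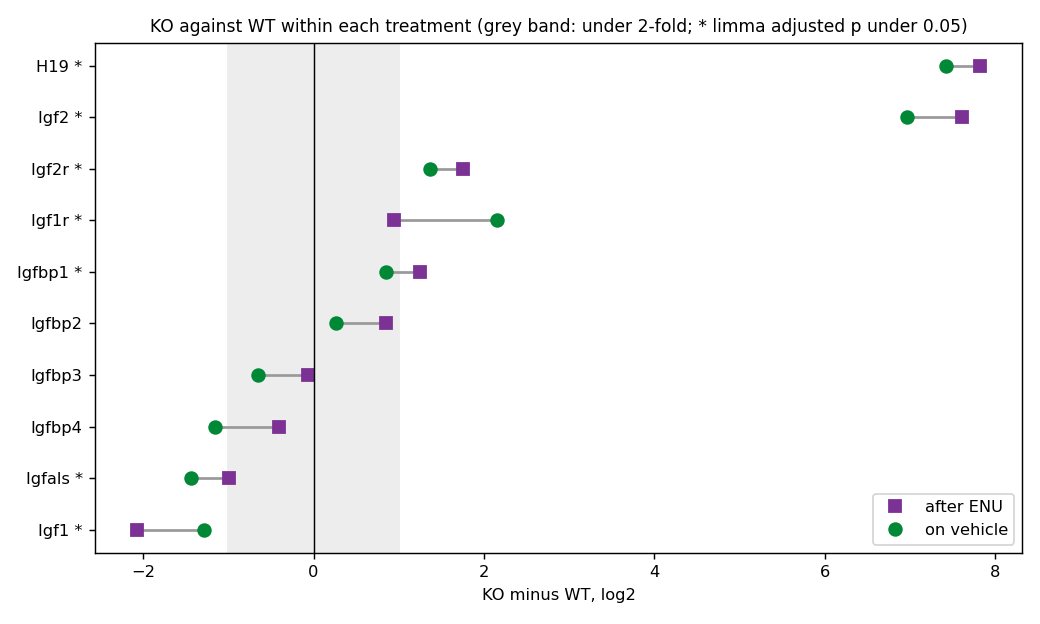
KO minus WT difference of each IGF gene in log2, after ENU (squares) and on vehicle (circles), ordered by the limma estimate, with an asterisk for adjusted p under 0.05. Igf2 and H19 lie near 7 to 8, Igf1 and Igfals are below 0 in both treatments, and Igf1r shows the widest gap between treatments, 2.15 on vehicle and 0.95 after ENU.

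Both receptor genes rose. Igf2r, the clearance receptor for IGF-II, read 3.50 and 3.51 on the KO ENU arrays against 1.78 and 1.72 on the WT ENU arrays. With vehicle, Igf2r read 3.34 and 3.35 on the KO arrays against 1.97 and 1.99 on the WT arrays. The groups did not overlap, and the 2 KO groups differed from each other by only 0.16. After ENU the KO level was 3.37-fold higher and on vehicle 2.58-fold higher, and Igf2r rose by 1.56 ± 0.20 (limma, adjusted p = 0.0172), measured by 1 probe at chr17:11399590-11399648 of mm7.

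Igf1r, which encodes the signalling receptor for both ligands, was low in WT and less uniform. The brightest of its 4 probes, A_51_P474538, is named A330103N21Rik in the files, an older symbol of Igf1r. It read -1.27 and -1.26 on the KO ENU arrays against -1.69 and -2.74 on the WT ENU arrays. On the vehicle slide Igf1r read -0.14 and 0.14 on the KO arrays against -2.12 and -2.19 on the WT arrays. KO vehicle was highest, KO ENU followed, and the arrays of the WT groups overlapped because the WT ENU pair was wide apart. After ENU the KO level was 1.93-fold higher and on vehicle 4.45-fold higher, and Igf1r rose by 1.55 ± 0.35 (limma, adjusted p = 0.0435). Without WT ENU array b the effect was 1.29 and did not pass (limma, adjusted p = 0.124), and with quantile normalization it was 1.46 (adjusted p = 0.0615). The difference on vehicle was 1.56 with normexp background correction, against 2.15.

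The other 3 Igf1r probes had the same sign. A_51_P318365 gave a KO effect of 1.30 ± 0.30 (limma over probes, adjusted p = 0.0403), with differences of 0.83 after ENU and 1.78 on vehicle. A_52_P634111 and A_52_P668647 were well above background on 0 of the 4 WT arrays, so their folds are bounds, each the KO mean against the higher of the array's detection floor and the probe's own signal. For A_52_P634111 the KO level was at least 1.60-fold higher after ENU (measured means -4.08 in KO and -5.54 in WT) and at least 1.56-fold higher on vehicle (-3.51 and -5.19). A_52_P668647 was at least 1.06-fold higher after ENU (-4.67 in KO and -5.71 in WT) and at least 2.34-fold higher on vehicle (-2.92 and -4.69). Both probes passed the filter through KO alone and are given as a description. All 4 probes lie on chromosome 7 between 64043608 and 64088150 of mm7.

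**Figure D3:**
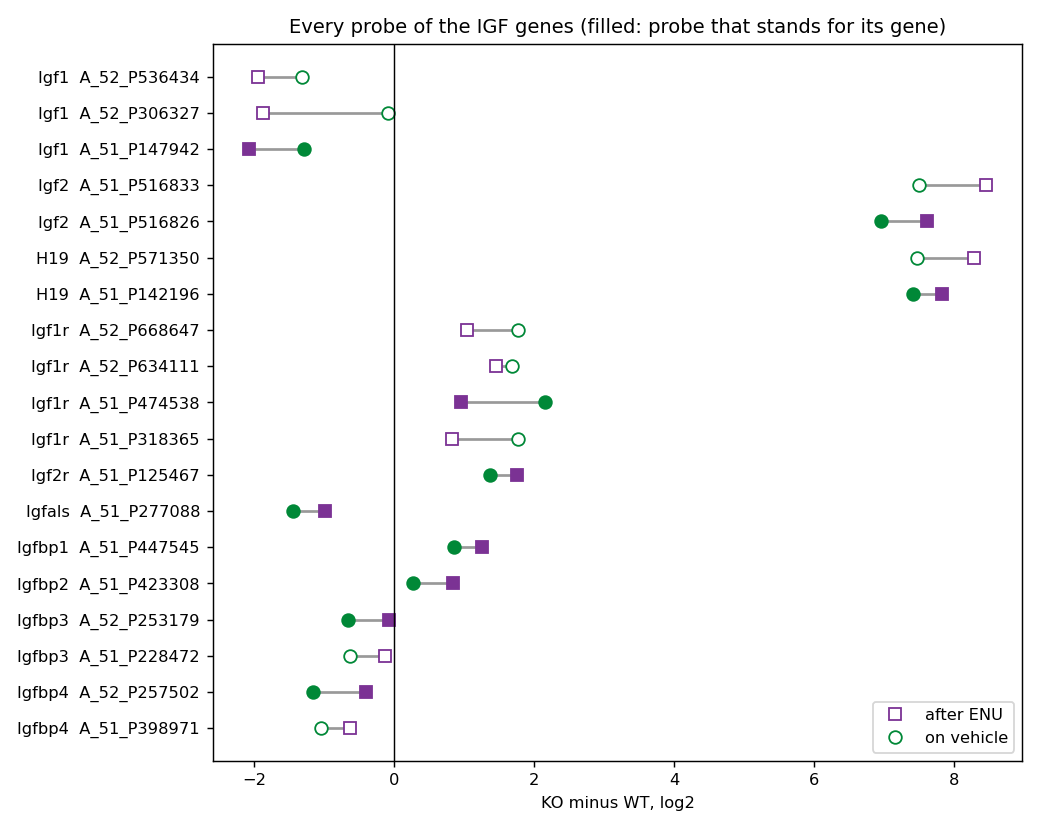
KO minus WT difference in log2 for all 19 probes of the IGF genes, after ENU (squares) and on vehicle (circles), with filled symbols for the probe that stands for its gene. Probes of a gene share their sign in each treatment. The Igf1 probe A_52_P306327 is near 0 on vehicle (-0.09) and at -1.87 after ENU. The Igf1r probes A_52_P634111 and A_52_P668647 are drawn at their measured differences although WT was not well above background.

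Of the 4 binding protein genes Igfbp1 to Igfbp4, only Igfbp1 passed the test. Igfbp1, which insulin represses and which withholds IGF from its receptor for short periods, read 7.70 and 7.71 on the KO ENU arrays against 6.46 on both WT ENU arrays. On vehicle it read 7.39 and 7.45 on the KO arrays against 6.58 and 6.57 on the WT arrays. KO and WT arrays did not overlap in either treatment. After ENU the KO level was 2.38-fold higher and on vehicle 1.80-fold higher, and Igfbp1 rose by 1.05 ± 0.21 (limma, adjusted p = 0.0328). Quantile normalization gave a larger effect, 1.78 (limma, adjusted p = 0.0178).

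The insulin response of Igfbp1 is known to run through FOXO factors at its promoter, so the 250 bases before its start site were searched for CAAAACA on both strands. It had 1 match, beginning at position -108 from the start site, and 5.56% of the 32851 windows held this pattern. No other IGF gene with a window in the table held it. The window is printed from RefSeq's GRCm38.p6, plus strand, with the match in capitals, and no binding was measured there.
Igfbp1 (chr11:7197537-7197786): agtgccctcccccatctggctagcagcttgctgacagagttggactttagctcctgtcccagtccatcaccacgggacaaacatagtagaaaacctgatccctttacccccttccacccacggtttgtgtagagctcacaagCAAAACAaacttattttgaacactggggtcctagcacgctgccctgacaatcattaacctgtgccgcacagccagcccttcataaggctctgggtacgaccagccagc

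The profiles nearest to Igfbp1 were Zfp280b at 0.06, Styx and Tut4 at 0.08, and Efna4 and Tlnrd1 at 0.09. Tut4 encodes a terminal uridylyltransferase known to act on precursors of let-7. As for the other genes, the distances are over 4 RNA samples.

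Igfbp2, the main binding protein of fetal and early postnatal serum, read 6.52 and 6.67 on the KO ENU arrays against 5.75 and 5.76 on the WT ENU arrays. On vehicle it read 6.33 and 6.36 on the KO arrays against 6.07 and 6.09 on the WT arrays. The KO arrays were above the WT arrays in both treatments, by 0.84 after ENU and 0.27 on vehicle. The fitted difference of 0.56 ± 0.23 did not pass (limma, adjusted p = 0.138). With quantile normalization it was 1.29 and passed (limma, adjusted p = 0.0340).

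Igfbp3, the chief carrier of circulating IGF, is expressed in liver mostly outside hepatocytes. It read 0.03 and 0.02 on the KO ENU arrays against 0.08 and 0.11 on the WT ENU arrays, and -1.04 on both KO vehicle arrays against -0.40 and -0.37 on the WT vehicle arrays. The KO arrays lay just below the WT arrays after ENU and further below them on vehicle. The fitted KO difference was -0.36 ± 0.23 (limma, adjusted p = 0.285). Its second probe, A_51_P228472, gave a like value, -0.39 ± 0.22 (limma over probes, adjusted p = 0.246). Igfbp1 and Igfbp3 lie 3539 bases apart on chromosome 11 in GRCm38.p6. Their KO differences had opposite signs, but that of Igfbp3 did not pass.

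Igfbp4, which binds IGF until the protease PAPP-A cleaves it, read 2.88 on both KO ENU arrays against 3.28 and 3.29 on the WT ENU arrays. On vehicle it read 2.67 and 2.73 on the KO arrays against 3.87 and 3.84 on the WT arrays. KO was lower in both treatments, 1.32-fold after ENU and 2.23-fold on vehicle. The fitted difference of -0.78 ± 0.26 did not pass (limma, adjusted p = 0.0926), nor did that of the second probe, A_51_P398971 (-0.84 ± 0.21, adjusted p = 0.0507).

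Set by size within a treatment, 4 of the 10 genes were past 2-fold higher in KO after ENU (Igf2, H19, Igf2r and Igfbp1), against 16.2% of all genes, and 1 was lower (Igf1), against 14.2%. On vehicle 4 were higher (Igf2, H19, Igf2r and Igf1r), against 17.3% of all genes, and 3 were lower (Igf1, Igfals and Igfbp4), against 11.1%. In both treatments Igf2, H19 and Igf2r were past 2-fold higher (12.8% of all genes were) and Igf1 past 2-fold lower (7.54% of all genes were). Igfals just missed 2-fold after ENU, at 1.99.

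Averaged over genotypes, the ENU difference was smaller in size than the KO difference for every IGF gene but Igfbp3. In KO livers 1 of 10 was past 2-fold higher after ENU than on vehicle (Igfbp3, 2.10-fold), against 4.34% of all genes. Igf1 (2.17-fold) and Igf1r (2.40-fold) were past 2-fold lower, 2 of 10 against 5.42%. In WT livers 0 of 10 were past 2-fold in either direction, against 7.18% of all genes higher and 5.49% lower. With normexp background correction Igfbp3 in KO no longer passed 2-fold.

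H19 was higher after ENU than on vehicle in both genotypes, by 0.88 in KO and 0.48 in WT, and the averaged difference was 0.68 (limma, adjusted p = 0.201). Igfbp3 behaved alike in sign, at 1.07 in KO and 0.48 in WT, with an average of 0.77 (adjusted p = 0.200). Igfals differed by 0.70 in KO and 0.24 in WT (average 0.47, adjusted p = 0.292). Igf1 was lower after ENU in both, by -1.12 in KO and -0.33 in WT (average -0.73, adjusted p = 0.235). Its probe A_52_P306327 differed by -1.48 in KO but by 0.31 in WT, so the direction in WT depends on the probe. None of these averages passed, and each shares its slide with the treatment.

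**Figure D4:**
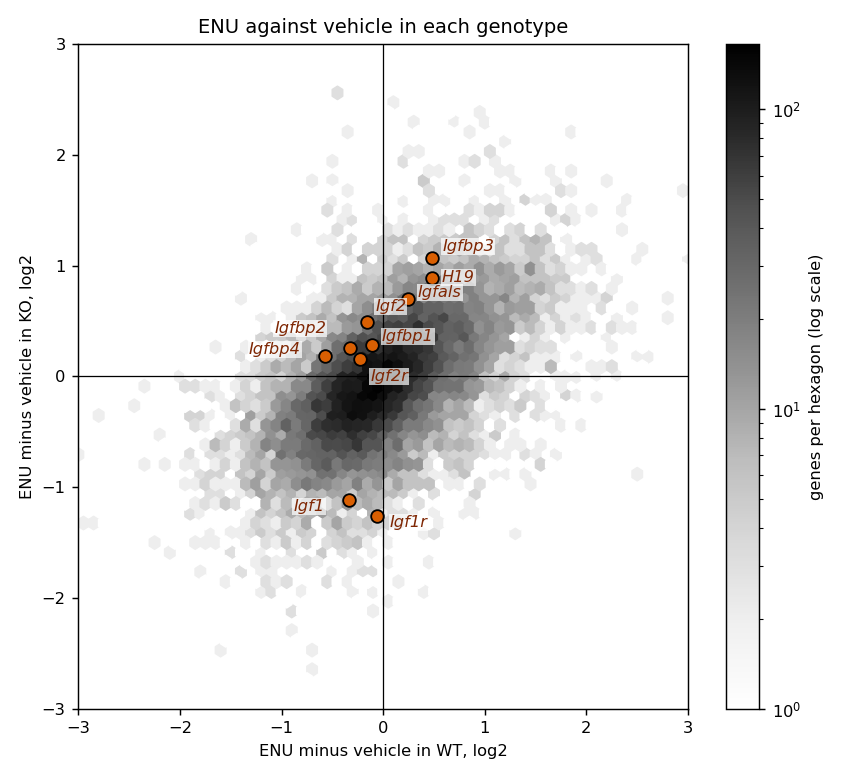
ENU minus vehicle difference in WT (horizontal) and in KO (vertical), both in log2, for the 10 IGF genes (orange) over all genes tested (grey hexagons, darker for more genes, log scale, drawn between -3 and 3). Igf1 and Igf1r lie low on the vertical axis (-1.12 and -1.26), and Igfbp3 (1.07), H19 (0.88) and Igfals (0.70) lie high.

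The wider family of binding proteins was measured by 10 genes, of which 7 rose and 0 fell, against 16.9% and 15.3% of all genes, with a median KO effect of 1.88 against -0.12. Across the alternative settings the count that rose was 5 to 7, and it stayed at 7 when single arrays were left out. Those that rose were mainly matricellular proteins and secreted proteases that carry an IGFBP-like domain. Ccn5 rose (limma, adjusted p = 0.0196). It was higher in KO by a log2 of 2.98 after ENU, and on vehicle it was at least 16.2-fold higher, since WT vehicle was not well above background (measured means -0.13 in KO and -5.33 in WT). Ccn2, the connective tissue growth factor, rose by 2.78, Htra3, a serine protease, by 2.62, Ccn4 by 2.44, Ccn1 by 2.26, Htra1 by 1.5 and Igfbp7 by 1.29. The classical members Igfbp5 (-0.10) and Igfbp6 (-0.54) did not pass. These genes are also expressed by stellate cells and fibroblasts, of whose markers 4 of 10 rose, with a summed signal of 178.2 in KO ENU against 86.19 in WT ENU and 161.9 in KO vehicle against 77.12 in WT vehicle. The part of those cells was not tested.

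Genes for proteases that cut binding proteins, and for their regulators, rose in 6 of 10 measured cases and fell in 0, against 16.9% and 15.3% of all genes. The count was 3 over probes well above background on all 8 arrays. Pappa and Stc2 were not well above background in WT and passed the filter through KO alone, which accounts for only part of that drop. Mmp7 rose by 2.42, Mmp14 by 2.27, Adamts1 by 1.61 and Prss23 by 1.13. Of these, Mmp7 was dim in WT, at -4.85 after ENU and -3.24 on vehicle, so its size is uncertain. For Pappa, the metalloprotease that frees IGF from IGFBP-4, the level in KO was at least 2.01-fold higher after ENU (measured means -3.75 in KO and -5.88 in WT) and at least 2.47-fold higher on vehicle (-2.85 and -5.23), with limma adjusted p = 0.0107. For Stc2, an inhibitor of PAPP-A, the bounds were at least 1.09-fold after ENU (-4.63 in KO and -6.42 in WT) and 1.27-fold on vehicle (-3.81 and -6.16).

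Downstream of the receptors most genes did not pass. Of 33 measured, 5 rose, 1 fell and 27 did neither, against 16.9% of all genes that rose and 15.3% that fell, and the median was -0.10. The share that rose was thus close to that of all genes, and the count that fell was 0 with quantile normalization and 7 with median centring. Grb10, an imprinted adaptor that binds the insulin and IGF-I receptors and dampens their signal, stood far above the rest and rose by 5.16 ± 0.19 (limma, adjusted p = 0.00998), with differences of 5.01 after ENU and 5.30 on vehicle. Mapk3, which encodes the kinase ERK1, rose by 1.37 and Pik3r3, a regulatory subunit of PI3 kinase, by 1.16, while Hras fell by 0.96. Insr, the insulin receptor, differed by -0.60 (limma, adjusted p = 0.0755).

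Of 7 measured genes for proteins that bind Igf2 mRNA, or regulate those binders, 2 rose and 0 fell, against 16.9% and 15.3% of all genes. Igf2bp1 and Igf2bp3 are fetal RNA-binding proteins and known let-7 targets. Igf2bp1 was not well above background in WT and passed the filter through KO alone, and over probes well above background on all 8 arrays the count was 1. Its KO level was at least 2.86-fold higher after ENU (measured means -3.24 in KO and -6.79 in WT) and at least 2.14-fold higher on vehicle (-3.05 and -6.27), with limma adjusted p = 0.0101. Igf2bp3 rose by 3.22 ± 0.61 (limma, adjusted p = 0.0300), with differences of 2.08 after ENU and 4.36 on vehicle. Its probe was dim in WT vehicle, at -4.37, so the difference on vehicle and the fitted effect are uncertain in size. Igf2bp2, the member found in adult tissues, differed by -0.05, and Hmga2, which activates it, by 0.72 (limma, adjusted p = 0.0840).

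Around Igf2 and H19 on the chromosome, and among regulators of their imprinting, 6 of 15 measured genes rose and 2 fell, against 16.9% and 15.3% of all genes. The count that fell was 1 with quantile normalization and 4 with median centring. Cdkn1c, a maternally expressed inhibitor of the cell cycle, rose by 4.52 ± 0.45 (limma, adjusted p = 0.0124), with differences of 5.33 after ENU and 3.71 on vehicle. Phlda2, its imprinted neighbour, rose by 2.93 and Lsp1, a leukocyte gene near H19, by 2.05. Plagl1, a transcription factor of the imprinted network, rose by 2.12, and the DNA methyltransferases Dnmt3a and Dnmt1 rose by 1.19 and 1.01. Ascl2 and Slc22a18, which are imprinted too, fell by 1.39 and 0.88. Ctcf, which binds the control region between Igf2 and H19, differed by 0.13 (limma, adjusted p = 0.607), and Trim28 by 0.09. Mrpl23, next to H19, differed by -0.53 and Cd81 by -0.55, and neither passed.

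**Figure D5:**
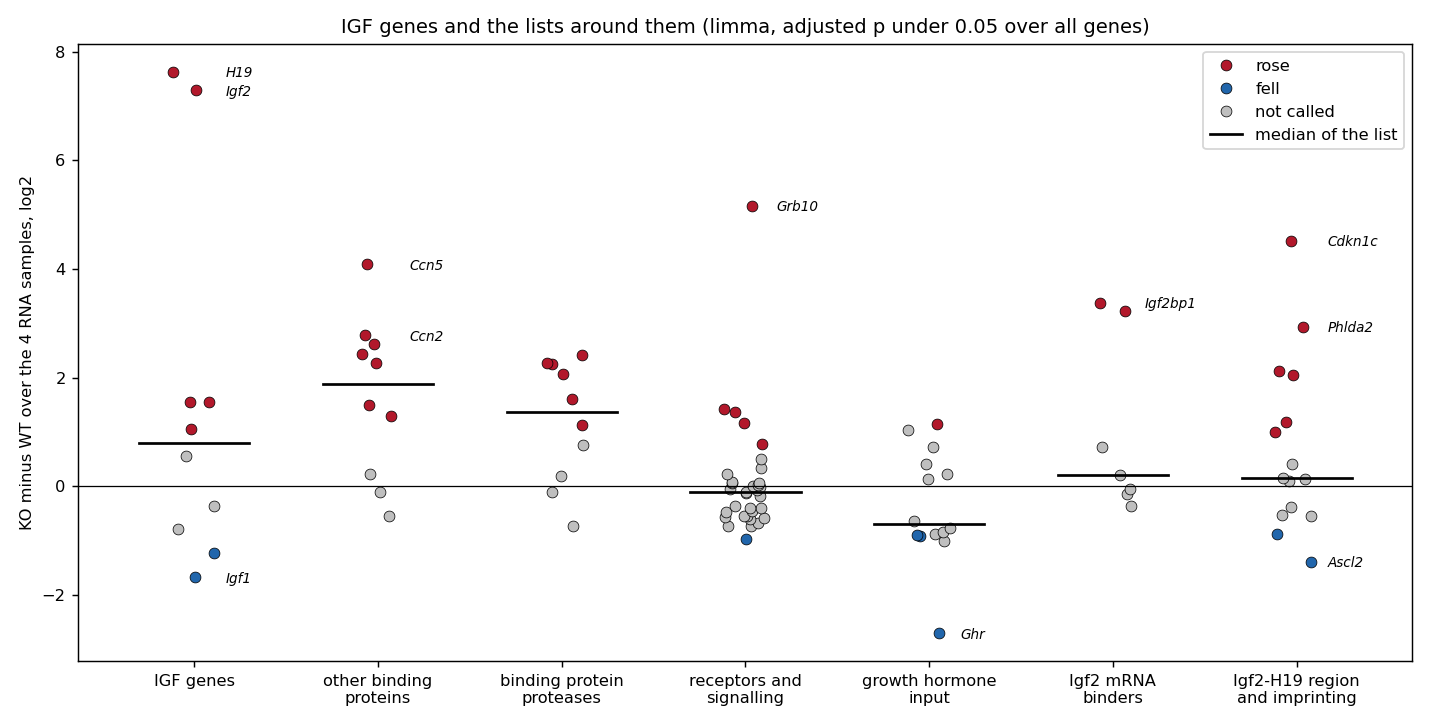
KO minus WT effect in log2 from the limma fit for the 10 IGF genes and the 6 lists around them. Each point is a gene, red where it rose, blue where it fell and grey where it did not pass, spread sideways for legibility, and bars are list medians. Genes not well above background in WT, such as Pappa, Stc2 and Igf2bp1, are drawn at their measured difference. The other binding proteins have the highest median (1.88), growth hormone input the lowest (-0.69), and Grb10 (5.16) stands alone among the receptor and signalling genes.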

How the data were processed

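Total liver RNA was labelled with Cy3 and hybridised to 8 one-colour Agilent arrays. The deposited intensity files are output of Agilent Feature Extraction, version 10.7.1.1 per the file headers and 10.5.1 per the submitters' processing notes, and their processed signal is background-corrected. From the deposited processed signal, log2 minus the log2 of each array's 75th percentile was computed, without control and outlier spots, and the spots of a probe were averaged. Each array had 43379 probe spots, 54.7% to 69.3% of spots well above background and 0 saturated. The number of arrays limits the precision. The 27231 probes well above background on both arrays of at least 1 group were kept, and the brightest probe stood for its gene. Probe names were updated through RefSeq's GRCm38.p6 table: accessions named 22951 probes, symbols 6659 and older symbols 3109, while 8455 stayed as in the files. M6pr, listed there as an older name of Igf2, is a gene of its own, and its 3 probes were not taken. Windows before start sites matched 9 of the 10 genes.

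Arrays a and b were averaged, and limma 3.58.1 (R 4.3.3) fitted genotype and treatment to the 4 RNA samples. The fit was tested on simulated data. A group counted as not well above background where no probe of the gene, or for a single probe the probe itself, was so on either array. The letters a and b did not pair the samples (correlations of deviations -0.02 to 0.11). The members and lists were chosen with earlier results of these data known. In each list the named genes are those called or past 2-fold in both treatments, up to the 8 with the largest KO difference, and other names were added after their values were seen. Some called genes of the signalling list are not reported here. Alternatives were normexp background, quantile normalization, median centring, other probe filters and probe summaries, single arrays left out, and fits to 8 arrays.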

Additional observations from a re-analysis of the deposited data

Results flagged for a closer look

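By the probe that stands for each gene, for 5 IGF genes both ENU arrays lay above both vehicle arrays in KO, and both ENU arrays lay below both vehicle arrays in WT. The ENU minus vehicle difference (log2) of Igf2 was 0.49 in KO and -0.16 in WT, that of Igf2r was 0.16 in KO and -0.23 in WT, and that of Igfbp1 was 0.29 in KO and -0.11 in WT. For Igfbp2 it was 0.25 in KO and -0.32 in WT, and for Igfbp4 it was 0.18 in KO and -0.57 in WT. Each group is 1 RNA sample, so the difference between genotypes was not tested, and 16.9% of all genes tested had such opposite signs on every array. The opposite signs depend on the probe for Igf2 and Igfbp4: the second Igf2 probe, A_51_P516833, gave 0.998 in KO and 0.04 in WT, and the second Igfbp4 probe, A_51_P398971, gave -0.16 in KO and -0.57 in WT. With quantile normalization the Igfbp1 difference in WT was 0.03, so its signs were then no longer opposite.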

How the results depend on the processing

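Under the 15 alternatives to the fit of 4 RNA samples, the KO effect kept its sign for all 10 IGF genes, and Igf2 (7.08 to 7.75), H19 (7.42 to 8.03), Igf2r (1.36 to 1.89), Igfbp1 (0.85 to 1.78) and Igfals (-1.42 to -1.03) passed in every one. Igf1 was not called with quantile normalization (-0.92, limma adjusted p = 0.0949), nor was Igf1r with it (1.46, adjusted p = 0.0615) or without WT ENU replicate b (1.29, adjusted p = 0.124), where its ENU difference in WT was 0.46. Igfbp2 passed with quantile normalization alone (1.29, adjusted p = 0.0340). The cause was not tested. With quantile normalization, members past 2-fold in KO numbered 6 higher and 1 lower on vehicle, against 4 and 3, and 5 higher after ENU, against 4. After ENU, 2 were lower in KO with median centring, against 1, and the count was 1 to 2 when single arrays were left out (2 without WT ENU replicate a). With normexp 0 were past 2-fold higher after ENU in KO, against 1. Median centring moved the KO minus WT median of all genes by -0.22 on vehicle and -0.18 after ENU. Genes lower in KO then numbered 4884, and 4170 with normexp, against 2778, so that 35.9% and 36.5% of calls were higher, against 52.4%. That share was 36.6% over probes well above background on all 8 arrays, whose genes lower after ENU numbered 3, as with normexp, against 0.

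Among the marker lists, the hepatocyte count that fell was 2 to 9 and the endothelial one 0 to 4, and over probes well above background on all 8 arrays 4 neutrophil and 1 of the T, NK and B cell markers rose, against 7 and 4.

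Fitted to 8 arrays, which sets groups against array noise, limma called most of the 18153 genes. It called 6645 genes higher and 8796 lower in KO, 6058 higher and 7355 lower after ENU, and 7 of 10 IGF genes for ENU. With the replicate block these were 6611, 8723, 5972, 7219 and 7. The labels share only the letters a and b. Over all values and alternatives, those above included, 1174 were classed as the same, 212 as moved, 21 passed the threshold in addition and 3 lost it. The moved class held single values that shifted by more than the spread between arrays, and some that turned sign. For counts the same class allowed large shifts, such as genes higher in KO from 3062 to 2400 with normexp. Of the 21, all but Igfbp2 with quantile normalization came from the fits to 8 arrays, which take arrays as replicates. In all, 0 calls reversed, but ENU differences without a call turned sign in some alternatives for Igf1r, Igf2r, Igfbp1 and Igfbp2. The limits are 1 RNA sample per group, confounding of slide with ENU and of position with genotype, and dim WT signal for 2 of the 4 Igf1r probes.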
